A study of Homo sapiens with 44 samples.

Results

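The genes described here encode 10 m6A reader proteins: YTHDF1, YTHDF2, YTHDF3, YTHDC1, YTHDC2, IGF2BP1, IGF2BP2, IGF2BP3, ELAVL1 and FMR1. They were taken by symbol from the 19923 genes of the count tables, and all 10 were listed there. N6-methyladenosine (m6A) is a methyl mark on mRNA, written by a complex whose catalytic subunit is METTL3. The study asked what STM2457, a small molecule that inhibits METTL3, does in neuroblastoma cells that carry an amplified MYCN gene. Kelly cells received 8 µM STM2457 or DMSO for 1 day or 6 days, and NGP cells received the same for 6 days; both are established human neuroblastoma lines labelled as wild type. The other experiment used tumours grown from Kelly cells in male and female nude mice, which were injected once a day over 14 days with STM2457 at 50 mg/kg or with vehicle alone (named DMSO here, after the labels). Nude mice lack a thymus but keep other blood and stromal cells, and no source used here says whether mouse reads were removed. Every condition has input libraries (fragmented poly(A) RNA) and RIP libraries (fragments pulled down with an m6A antibody), with 3 libraries a group in culture and 2 in the xenograft. Since no label says that replicates came from separate cultures or mice, the p-values measure the spread between these libraries, which may be technical.

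Readers are proteins that bind methylated mRNA and set its fate. The YTHDF and YTHDC proteins share the YTH domain, whose aromatic pocket holds the methylated base. In the cytoplasm, YTHDF2 brings the CCR4-NOT deadenylase to its targets and speeds their decay, while YTHDF1 and YTHDF3 have been linked to translation as well as decay. YTHDC1 is the nuclear YTH reader and acts in splicing and export, and YTHDC2 is an RNA helicase known for its role in meiosis. The IGF2BP proteins are KH-domain proteins that stabilise their targets, and IGF2BP1 and IGF2BP3 are oncofetal, usually low in adult tissue. ELAVL1 (HuR) binds AU-rich elements and protects mRNAs, and FMR1 encodes FMRP, a brake on translation that is lost in fragile X syndrome.

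The number of fragments assigned to genes (M, mega) ran from 2.14 to 7.27 M in the xenograft inputs, from 5.49 to 11.6 M in NGP, from 5.77 to 31.49 M in Kelly at 6 days and from 24.07 to 26.56 M in Kelly at 1 day. The RIP libraries held 4.68 to 36.5 M. The 10 neuroblastoma markers looked at (among them GATA3 and DBH) were all at 1 CPM or more in every input group, save 9 of 10 in NGP with DMSO, and their summed level ran from 12157 to 38408 CPM (a gene's fragments as a scaled share of the library total). The 8 fibroblast and vessel genes summed to 6.61 to 110.5 CPM, with COL1A2 at 0 counts in 5 of 8 input groups (in both xenograft groups also DCN and LUM). Others of these 8 were present, and 1 to 4 reached a mean of 1 CPM in each group. COL1A1 measured 32.8 ± 2.32 CPM in Kelly at 6 days with DMSO. COL3A1 measured 15.9 ± 6.04 CPM with DMSO and 42.6 ± 12.4 with STM2457 in NGP. The 6 blood genes summed to 0.932 to 12.5 CPM, with HBB at 0 in 7 of 8 groups. Their part in the results below was not tested. In bulk RNA, fewer cells of a type and less RNA per cell cannot be told apart.

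The reader genes differ in exon structure, and short stretches of their mRNAs are printed to show the letters the antibody's target sits in. GGACT is the DNA spelling of a frequent m6A context. It was searched on the transcript strand only, in each gene's canonical GENCODE 44 transcript. All 10 reader transcripts hold GGACT, as do 91.6% of the 13362 transcripts of genes tested in Kelly at 1 day, so its presence sets none of them apart. In each window below, read from the GENCODE 44 transcript and GRCh38, the motif nearest the end of the stop codon is in capitals. YTHDF2, IGF2BP1 and ELAVL1 are shown because their RIP values lie at the extremes, YTHDF1 and YTHDC1 as family members in between.
YTHDF1, coding sequence, exon 4 of 5, 310 bases before the end of the stop codon, chr20:63202556-63202584, minus strand: gaagtcccccgtGGACTacggcaccagtg
YTHDF2, 3′ UTR, exon 5 of 5, 80 bases after it, chr1:28769018-28769046, plus strand: tcaagagaattaGGACTtttttcttaatt
YTHDC1, 3′ UTR, exon 17 of 17, 1125 bases after it, chr4:68312960-68312988, minus strand: tacttcataaatGGACTtttaaccctctt
IGF2BP1, 3′ UTR, exon 15 of 15, 985 bases after it, chr17:49050415-49050443, plus strand: cggttccatggaGGACTtgagtggcccca
ELAVL1, 3′ UTR, exon 6 of 6, 1458 bases after it, chr19:7962011-7962039, minus strand: caaaactcctcaGGACTgggatctggcgt

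Within 400 bases of the end of the stop codon, YTHDF2 holds 3 GGACT motifs, YTHDC2 holds 2, and YTHDF1, YTHDF3 and IGF2BP2 hold 1 each. The other 5 readers hold none there, while 56.8% of the tested transcripts hold at least 1. A match is a description of letters and not a methylated site. IGF2BP1 has 9 GGACT motifs in 8796 bases of mRNA, or 1.02 per kilobase, against a median of 0.928 over the tested transcripts. YTHDF1 has 1 in 3198 bases, or 0.313 per kilobase. The 3 YTHDF transcripts share a gene plan of 5 exons with a long internal coding exon of 1521 bases in YTHDF1, 1584 in YTHDF2 and 1599 in YTHDF3. Only 6.49% of the tested transcripts have an internal exon of 1000 bases or more, and the median of the longest internal exon is 209 bases. The longest internal exon is 424 bases in YTHDC1, 293 in YTHDC2, 282 in IGF2BP1 and in IGF2BP3, 273 in IGF2BP2, 226 in ELAVL1 and 196 in FMR1. Instead, IGF2BP1 and ELAVL1 have the longest last exons of the set, 6794 and 5235 bases.

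With DMSO, 9 of the 10 readers had counts in every input and IGF2BP2 was barely seen. Some of these counts were low: 19 fragments of YTHDC2 and 61 of YTHDF3 in a xenograft input, and 64 of FMR1 in an NGP input. Levels are compared between genes in TPM, which divides each count by the gene's exon length and scales every library to the same total. That length joins all annotated exons of a gene. It is 8535 bases for IGF2BP3 and 8919 for FMR1, whose canonical mRNAs have 4274 and 4441, but 3206 against 3198 for YTHDF1. The order of genes and the family shares below hold for these lengths and could differ with mRNA lengths. In Kelly cells at 1 day, IGF2BP1 led the set with 345 ± 8.82 TPM (SD, n = 3), above 98.1% of all genes in the tables. YTHDF1 followed at 153 ± 0.656 TPM, YTHDF2 at 132 ± 3.60, ELAVL1 at 69.8 ± 1.55 and YTHDC1 at 48.7 ± 2.79. YTHDF3 (37.8 ± 1.502 TPM) and IGF2BP3 (36.7 ± 1.27) overlapped in their libraries, and YTHDC2 (15.7 ± 2.13) and FMR1 (10.5 ± 1.11) closed the order. No other neighbours in that order overlapped.

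In the other experiments IGF2BP1 no longer stood far above the YTHDF pair. Kelly cells at 6 days gave 80.3 ± 3.49 TPM for YTHDF2, 78.0 ± 3.07 for YTHDF1 and 73.2 ± 1.22 for IGF2BP1, and the first 2 of these overlapped. NGP gave 97.5 ± 23.6, 85.9 ± 1.24 and 78.8 ± 8.82 TPM for the same genes, and neither neighbouring pair could be ordered beyond its spread. In the xenograft the order was IGF2BP1 (87.3 ± 3.20 TPM, n = 2), YTHDF1 (64.6 ± 5.55) and YTHDF2 (58.8 ± 23.2), the last 2 overlapping. YTHDC1 came next in these 3 experiments, at 44.6 ± 2.096, 55.9 ± 3.21 and 33.3 ± 1.05 TPM, followed by ELAVL1 at 28.4 ± 1.18, 43.3 ± 4.30 and 31.7 ± 1.24. IGF2BP3 and YTHDF3 lay between 7.84 and 15.2 TPM on average, and YTHDC2 and FMR1 between 2.25 and 12.7.

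IGF2BP2 had 0 counts in 14 of the 22 inputs, including all 6 of Kelly at 6 days, and its highest input count was 12 fragments. The highest input level was 1.40 CPM. A count of 0 allows a level of up to 0.0953 to 0.941 CPM in those inputs (3 counts of the library total, counting error only). The counted exons cover 85.8% of its GENCODE 44 canonical transcript, against 99.3% to 100% for the other 9 readers. It passed the low-count filter in none of the fits and has no fold change.

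**Figure D1:**
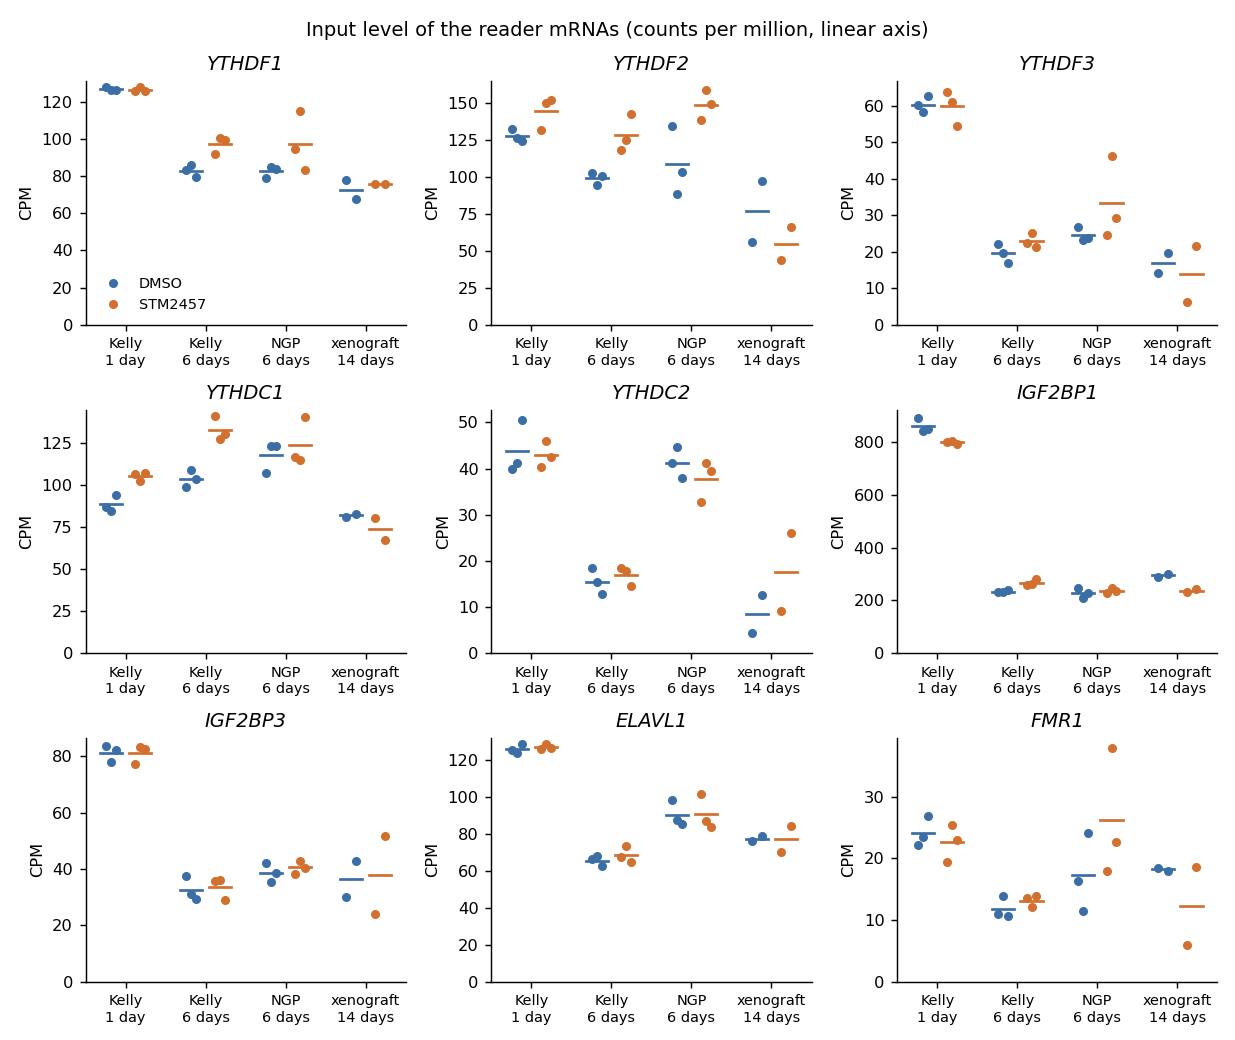
Input level of the 9 measured reader genes in CPM (linear axis from 0) in each library of Kelly 1 day, Kelly 6 days, NGP 6 days and the xenograft; blue points are DMSO, orange points STM2457, and bars are group means. IGF2BP1 was highest in Kelly cells at 1 day (841 to 889 CPM with DMSO), and the treated and control points overlap for most genes.

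The make-up of each family was read as the share of its TPM sum. IGF2BP1 held 83.9% ± 0.0878 (SD, n = 3) of the IGF2BP sum in NGP, 86.4% ± 1.70 in Kelly at 6 days, 87.7% ± 2.28 (n = 2) in the xenograft and 90.3% ± 0.170 in Kelly at 1 day, all with DMSO. The rest was almost wholly IGF2BP3. IGF2BP3 shares 17.8% of its exon bases with MALSU1, and fragments on shared bases were not counted. Those bases remain in the exon length used for TPM, so its share is a low estimate and that of IGF2BP1 a high one. YTHDF1 and YTHDF2 held near equal shares of the YTHDF sum in Kelly at 6 days, 46.5% ± 1.73 and 47.8% ± 1.91. The share of YTHDF3 was 11.7% ± 0.483 in Kelly at 1 day and 5.71% ± 0.635 at 6 days. Of the YTHDC pair, YTHDC1 held 75.7% ± 1.48 in Kelly on day 1 and 91.1% ± 1.71 on day 6, 81.4% ± 1.71 in NGP and 93.8% ± 3.89 (n = 2) in the xenograft. With STM2457 the YTHDF2 share was 44.03% ± 2.17 in Kelly at 1 day against 40.9% ± 0.696 with DMSO. The lowest treated library there (41.62%) lay just above the highest control (41.58%). The share was 50.2% ± 2.08 against 47.8% ± 1.91 in Kelly at 6 days and 52.9% ± 3.50 against 49.1% ± 5.83 in NGP. In the xenograft it went the other way, at 35.8% ± 5.21 with STM2457 against 43.97% ± 11.1 with DMSO (n = 2). Outside Kelly at 1 day, treated and control libraries overlapped in this share.

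**Figure D2:**
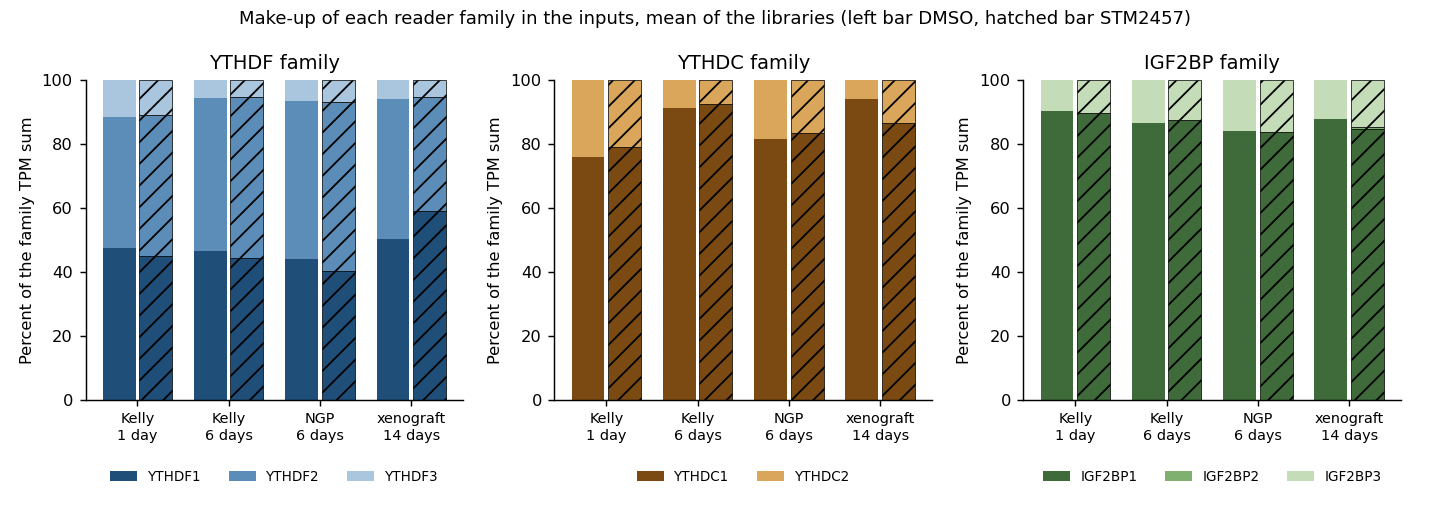
Share of each gene in the TPM sum of its family (percent, mean over the input libraries of a group), plain bars for DMSO and hatched bars for STM2457. IGF2BP1 makes up 83.7% to 90.3% of the IGF2BP sum in every group, and IGF2BP2 is too small to see.

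Control levels were compared between experiments with edgeR, but each experiment was its own set of libraries, so time or cell line and experiment cannot be told apart. The scaling matters here as well. Between Kelly at 1 day and at 6 days the median gene fell by 0.42 on the log2 scale in CPM and by 0.06 after TMM normalisation, and the fitted values below use TMM.

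From Kelly 1 day to Kelly 6 days with DMSO, 8 of the 9 tested readers differed, 1 higher and 7 lower, where 79.1% of all genes tested were called (37.9% higher, 41.1% lower). IGF2BP1, the most abundant reader at 1 day, fell from 889, 841 and 850.4 CPM to 231, 233 and 238 CPM. The libraries of the 2 days were far apart, with a log2 difference of -1.51 ± 0.05 (SE, edgeR adjusted p = 6.99e-18). YTHDF3 fell from 60.1, 58.2 and 62.6 CPM to 22.2, 19.7 and 16.9 (log2 -1.26 ± 0.10, adjusted p = 4.94e-11). YTHDC2 (log2 -1.13), IGF2BP3 (-0.95), FMR1 (-0.67), ELAVL1 (-0.58) and YTHDF1 (-0.25) were lower too, each with libraries that did not overlap in CPM. YTHDC1 was the exception in direction, at 87.0, 84.9 and 94.0 CPM on day 1 and 99.0, 109 and 104 CPM on day 6, a log2 difference of 0.60 ± 0.06 (adjusted p = 1.36e-08). YTHDF2 lay at 124 to 132 CPM on day 1 and 94.4 to 103 on day 6, which TMM places at a log2 difference of 0.00 (95% interval -0.12 to 0.13).

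Between the lines at 6 days, the clearest difference was in YTHDC2, the helicase. It measured 41.3, 44.6 and 38.0 CPM in NGP and 18.4, 15.3 and 12.9 CPM in Kelly, a fold of 2.32 (log2 1.21 ± 0.16, adjusted p = 0.000108). Its NGP libraries all lay above its Kelly libraries. ELAVL1 was 1.20-fold higher in NGP (adjusted p = 0.0253) and IGF2BP1 lower by a log2 difference of -0.23 (adjusted p = 0.0238). Those 2 calls are weak: IGF2BP1 overlapped in CPM, and leaving out any 1 of the 3 Kelly DMSO inputs ended both (edgeR adjusted p 0.0631 to 0.113), as did leaving out NGP replicate 3 for IGF2BP1 (0.0601). Without NGP replicate 2, YTHDF1 (log2 -0.22) and FMR1 (0.58) were called as well. In all, 3 of 9 tested readers were called, 2 higher and 1 lower, where 60.8% of all genes were (29.1% higher, 31.7% lower).

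In Kelly xenografts against Kelly cells at 6 days, 4 of 9 tested readers were called, 3 higher and 1 lower, where 40.8% of all genes were (20.4% each way). IGF2BP1 measured 290.2 and 299 CPM in the tumours against 231 to 238 CPM in culture, without overlap (log2 0.39 ± 0.06, adjusted p = 0.0013), and was called without each library in turn. FMR1 (log2 0.68), ELAVL1 (0.30) and YTHDC1 (-0.28) were also called, with adjusted p from 0.032 to 0.0344, and each lost its call without any 1 of the 3 Kelly inputs. YTHDC2 stood at 4.42 and 12.5 CPM in the tumours, or 19 and 91 fragments (log2 -0.76, edgeR adjusted p = 0.147). Tumour library 2 decided that value, since without it YTHDC2 was called lower (log2 -1.75) and so was YTHDF2 (-0.76). Without tumour library 1, YTHDF1 (-0.26) and IGF2BP3 (0.44) were called.

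STM2457 moved the reader mRNAs little. In Kelly cells at 1 day, 2 of the 9 tested readers were called in the inputs (1 up, 1 down), where 17.5% of the 13246 genes tested were called (9.41% up, 8.06% down). YTHDC1, the nuclear reader, measured 87.0, 84.9 and 94.0 CPM with DMSO and 106, 103 and 107 CPM with STM2457. All treated libraries lay above all controls, with a log2 change of 0.22 ± 0.06 (1.17-fold, edgeR adjusted p = 0.0102). IGF2BP1 measured 889, 841 and 850.4 CPM with DMSO and 800.4, 803 and 791 CPM with STM2457. The groups did not overlap, and the log2 change was -0.13 ± 0.04 (0.912-fold, adjusted p = 0.0258). YTHDF2, the decay reader, measured 132, 126 and 124 CPM with DMSO and 132, 149.6 and 152 with STM2457, with overlap at the lowest treated library (log2 0.16 ± 0.06, edgeR adjusted p = 0.0764). It was called without that library, treated replicate 1 (log2 0.22, adjusted p = 0.0387), without control replicate 1 (0.0488) and with no low-count filter (0.0497). The other 6 tested readers had log2 changes between -0.12 and -0.01.

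At 6 days in Kelly cells, 2 of 9 tested readers were called, both up, where 26.6% of the 12773 genes were called (11.9% up, 14.7% down). YTHDF2 measured 103, 94.4 and 101 CPM with DMSO and 118, 125 and 142 CPM with STM2457. The groups did not overlap, and the log2 change was 0.25 ± 0.07 (1.19-fold, adjusted p = 0.016). YTHDC1 measured 99.0, 109 and 104 CPM with DMSO and 141, 127 and 131 CPM with STM2457, again without overlap (log2 0.25 ± 0.07, 1.19-fold, adjusted p = 0.0116). YTHDF1 and IGF2BP1 were also without overlap in CPM, but CPM rose by 0.10 log2 for the median gene here. Their fitted changes were 0.12 (95% interval -0.02 to 0.26) and 0.08 (-0.04 to 0.21). Treated replicate 3 was the shallow library of this group (5.77 M fragments), and both calls stood without it.

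These calls were sensitive to single libraries and to the estimate of the spread. At 1 day the call of YTHDC1 was lost without treated replicate 1 or 3 (adjusted p = 0.0599 and 0.0543), and that of IGF2BP1 without control replicate 1 or any treated replicate (0.0834 to 0.108). At 6 days YTHDF2 lost its call without control replicate 2 (0.0924) and YTHDC1 without control replicate 1 (0.078). With all 22 inputs in 1 fit, which shares the spread of the noisier experiments, all 4 calls were lost with adjusted p from 0.177 to 0.916, while their log2 changes stayed within 0.03 of those above.

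NGP cells gave no call among the 9 tested readers, where 4.23% of the 12289 genes were called by edgeR (2.07% up, 2.16% down). YTHDF2 measured 134, 88.3 and 103 CPM with DMSO and 138, 159 and 149 CPM with STM2457. Its treated libraries all lay above its controls in CPM, but narrowly (138 against 134). CPM rose by 0.08 log2 for the median gene here, and by 0.01 after TMM. The fitted log2 change of YTHDF2 was 0.38 (95% interval 0.05 to 0.72, edgeR adjusted p = 0.205, unadjusted p = 0.026). It was the only reader with an unadjusted p under 0.05 there. FMR1 (log2 0.51, interval -0.12 to 1.13) and YTHDF3 (0.36, -0.15 to 0.87) had wide intervals, each with 1 treated library well above the others (37.9 CPM of FMR1, 46.1 CPM of YTHDF3, both in replicate 2). YTHDC1, called in Kelly, had a log2 change of 0.00 in NGP (-0.33 to 0.32).

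No reader was called in the xenograft inputs, where edgeR called 0% of 11329 genes and 968 genes had an unadjusted p under 0.05, none of them a reader. IGF2BP1 measured 290.2 and 299 CPM with DMSO and 231 and 242 CPM with STM2457, without overlap (log2 -0.19, 95% interval -0.55 to 0.17). YTHDC2 had 4.42 and 12.5 CPM with DMSO and 9.09 and 26.1 CPM with STM2457 (log2 1.17, -0.73 to 3.08), and it was called without treated replicate 1 (log2 1.73, edgeR adjusted p = 0.0252). YTHDC1, at -0.03, had an interval of -0.62 to 0.57, so a change of the size called in Kelly was not detectable here.

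**Figure D3:**
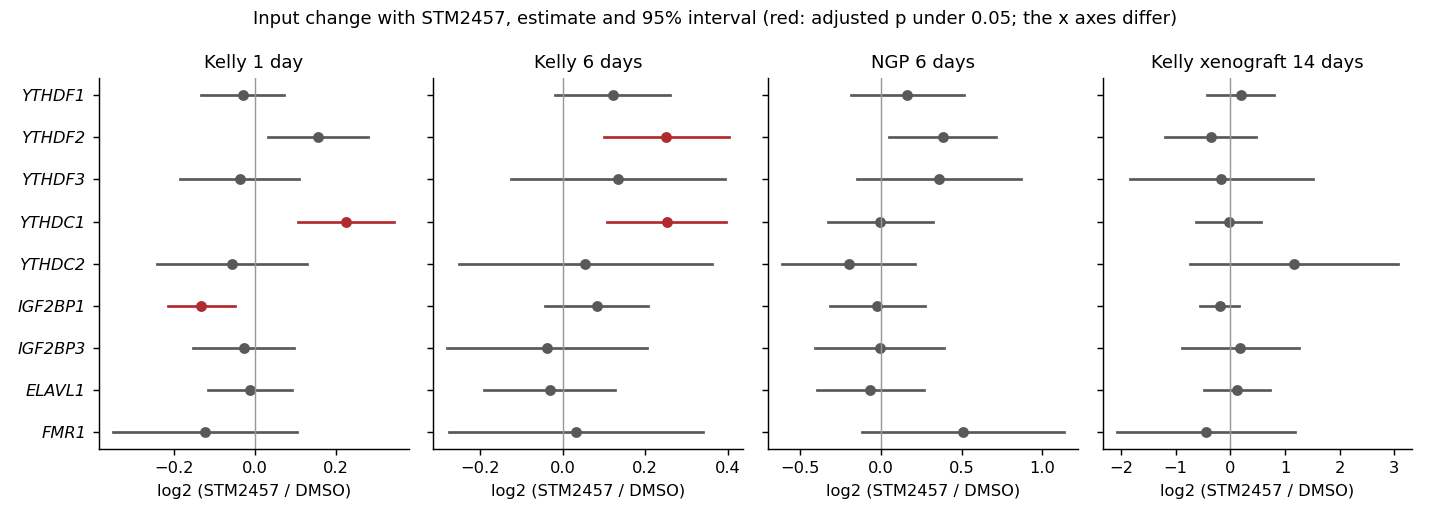
Log2 change of the input level with STM2457 over DMSO for the 9 tested reader genes, with 95% intervals, in the 4 experiments (the x axes differ). Red marks an adjusted p under 0.05: YTHDC1 and IGF2BP1 in Kelly at 1 day, YTHDF2 and YTHDC1 in Kelly at 6 days.

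The difference between the responses was tested as an interaction. Between 6 days and 1 day in Kelly, IGF2BP1 was the only tested reader called of 9, where 8.41% of all genes were called (3.67% up, 4.73% down). Its response was -0.13 at 1 day and 0.08 at 6 days, a difference of 0.23 ± 0.07 with an adjusted p of 0.0499, which rose to between 0.0524 and 0.116 without any 1 of the day 1 inputs other than DMSO replicate 2. Without treated replicate 1 of day 6, YTHDF1 was called too (0.26, adjusted p = 0.0445). The YTHDF2 and YTHDC1 responses differed between the days by 0.11 (95% interval -0.09 to 0.31) and 0.05 (-0.14 to 0.23). Between Kelly and NGP at 6 days, none of 9 tested readers was called by edgeR, where 1.36% of all genes were (0.565% up, 0.796% down), and none had an unadjusted p under 0.05. The YTHDC1 difference was 0.27 (-0.06 to 0.60).

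Genes that act before or beside the readers were looked at in the same input fits. Those fits called 17.5% of all genes tested in Kelly on day 1 (9.41% up, 8.06% down) and 26.6% on day 6 (11.9% up, 14.7% down). In NGP they called 4.23%, and in the xenograft 0%. Of the 10 m6A writers and erasers, the Kelly inputs of day 1 had 8 called higher and 0 lower (median log2 change 0.28, against 0.01 over all genes tested), and those of day 6 had 5 and 0 (median 0.32 against 0.00). None was called in NGP or in the xenograft. RBM15B, which guides the writer complex to RNA, rose from 93.6 ± 4.84 to 137 ± 2.97 CPM at 1 day (log2 0.53 ± 0.06, adjusted p = 7.93e-06) and from 73.0 ± 6.61 to 128 ± 6.55 CPM at 6 days (0.70 ± 0.07, adjusted p = 3.04e-06). It shares 20.0% of its exon bases with DCAF1. WTAP, the regulatory subunit of the complex, rose by 0.49 at 1 day, and CBLL1 by 0.42. VIRMA, its scaffold, rose by 0.57 at 6 days, and the demethylase FTO by 0.54. Each of these named changes was larger in log2 than the called changes of readers. However, they were picked as the largest of their list without overlap, while every called reader is given.

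Among 14 other m6A-binding proteins and paralogs of the readers, 1 fell and none rose in Kelly on day 1 (median -0.06), where 17.5% of all genes were called. On day 6, 3 rose and 2 fell (median -0.00), where 26.6% of all genes were called. None of the 14 was called in NGP or the xenograft. HNRNPC fell by 0.20 at 1 day. At 6 days the neuronal paralog ELAVL4 rose from 16.0 ± 1.36 to 24.1 ± 1.29 CPM (log2 0.49 ± 0.12, adjusted p = 0.00472), PRRC2B rose by 0.42, and FXR1, the paralog of FMR1, fell by 0.24. Of 16 reader partners and effectors, EIF3B alone was called at 1 day (log2 -0.12) and XRN1 alone at 6 days, with 6.50 ± 1.23 CPM with DMSO and 10.1 ± 1.75 with STM2457 (log2 0.56 ± 0.19, adjusted p = 0.0371). XRN1 is the exonuclease that degrades decapped mRNA. In the xenograft none of the 16 was called, nor in NGP. The shares of all genes called on day 1 and day 6 are the 17.5% and 26.6% just given.

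IGF2 mRNA, for whose binding the IGF2BP proteins are named, fell in all 3 culture experiments. It went from 165 ± 21.9 to 129 ± 11.2 CPM in Kelly at 1 day (log2 -0.38 ± 0.08, adjusted p = 0.00346) and from 337 ± 7.76 to 147 ± 2.71 CPM at 6 days (log2 -1.31 ± 0.06, adjusted p = 3.41e-10). In NGP it went from 382 ± 43.0 to 235 ± 72.7 CPM (log2 -0.78 ± 0.19, adjusted p = 0.0178). IGF2 shares 70.7% of its exon bases with other annotated genes, INS-IGF2 among them, so its counts come from the remaining bases and are uncertain. HMGA1, another fetal gene, fell by 0.27 in Kelly at 1 day. Of the 4 tested genes of that list, 2 fell on day 1 (median -0.23), 1 rose and 1 fell on day 6 (median 0.04) and 1 fell in NGP (median -0.46). In the xenograft 5 genes of the list, IGF2 among them, were tested and none was called (median -0.04). Over all genes, the shares called were 17.5% on day 1, 26.6% on day 6, 4.23% in NGP and 0% in the xenograft.

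In the m6A pulldown, reader mRNAs took opposite places. The value of a library is the log2 ratio of its CPM over the mean input CPM of its group, so 0 means the same share of both kinds of library and says nothing of absolute methylation. In Kelly at 1 day with DMSO, all 9 tested readers were called, 5 above and 4 below input, where 67.6% of the 13669 genes were called (33.3% above, 34.3% below). With a ratio of at least 2-fold added, 3 of 9 were above (26.3% of all genes) and 4 of 9 below (29.1%).

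YTHDF2 stood highest of the readers on both days in Kelly. Its RIP libraries held 993, 1096 and 1044 CPM in Kelly at 1 day against 124 to 132 in the inputs, or log2 ratios of 2.96, 3.10 and 3.03, and the fit gave 3.09 ± 0.07 (8.53-fold, edgeR adjusted p = 1.71e-12). That is above 97.2% of the genes tested. On day 6 they were 2.75, 2.95 and 2.37 (fit 2.66 ± 0.20, adjusted p = 3.64e-07), and in NGP 2.30, 1.88 and 1.64 (1.87 ± 0.19, adjusted p = 3.39e-08). RIP and input libraries never overlapped.

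YTHDF3 came after it in Kelly and beside it in NGP: its RIP libraries gave 2.57, 2.73 and 2.82 in Kelly on day 1, 1.86, 2.32 and 1.98 on day 6 and 2.21, 2.03 and 1.72 in NGP. The fitted ratios were 2.77 ± 0.13, 2.02 ± 0.24 and 1.90 ± 0.22, all called. YTHDF1 lay lower, at 1.54, 1.52 and 1.49 in Kelly at 1 day (fit 1.58 ± 0.05, adjusted p = 3.33e-11) and 1.81, 1.66 and 1.61 at 6 days (fit 1.65 ± 0.14, adjusted p = 8.88e-07). In NGP, YTHDF1 gave 1.01, 0.34 and 0.27, and its fit of 0.47 ± 0.19 (adjusted p = 0.0433) fell to 0.24 without RIP replicate 1 (adjusted p = 0.248) and lost its call in 8 of 16 alternatives.

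The YTHDC pair split. YTHDC1 was above input, at 0.38, 0.95 and 0.63 on the log2 scale in day 1 Kelly cells (fit 0.73 ± 0.12, adjusted p = 0.000138). At 6 days the ratios were 0.33, 0.76 and 1.11 (fit 0.72 ± 0.30, edgeR adjusted p = 0.0532), a value called without DMSO RIP replicate 1 (0.0395) or treated RIP replicate 1 (0.00426) or 3 (0.0277). In NGP they were 1.53, 2.03 and 2.16 (fit 1.84 ± 0.21, adjusted p = 1.18e-07), so that YTHDC1 there stood level with YTHDF2 and YTHDF3. YTHDC2 was below input in Kelly, at -2.30, -1.77 and -2.73 on day 1 (fit -2.15 ± 0.40, adjusted p = 0.000323) and -1.29, -2.53 and -2.14 on day 6 (fit -1.92 ± 0.51, adjusted p = 0.00677). In NGP it lay at -0.61, -0.11 and 0.01 (fit -0.30 ± 0.22, adjusted p = 0.252).

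IGF2BP1, the most abundant reader mRNA of Kelly cells at 1 day, was among the least recovered in RIP. Its RIP libraries held 112, 133 and 119.8 CPM in Kelly at 1 day against 841 to 889 in the inputs, or log2 ratios of -2.94, -2.70 and -2.84. The fitted ratio was -2.77 ± 0.15 (adjusted p = 2.52e-09), with 9.87% of the genes tested below it. The fit gave -2.64 ± 0.55 (adjusted p = 0.00125) at 6 days and -1.89 ± 0.19 (adjusted p = 2.19e-08) in NGP. Its paralog IGF2BP3 lay near input, at 0.29, 0.49 and 0.54 in Kelly at 1 day (fit 0.50 ± 0.14, adjusted p = 0.00562), -0.07, -0.11 and -0.59 at 6 days (fit -0.28 ± 0.26, adjusted p = 0.371) and 1.01, 0.58 and 0.90 in NGP (fit 0.74 ± 0.19, adjusted p = 0.00183).

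The readers without a paralog in the set were both below input in Kelly. ELAVL1 gave -2.39, -2.68 and -2.72 on day 1 (fit -2.53 ± 0.22, edgeR adjusted p = 2.36e-07) and -2.86, -3.49 and -4.97 on day 6 (fit -3.57 ± 0.47, adjusted p = 3.89e-05). It was less far below input in NGP, at -0.82, -0.86 and -1.09 (fit -1.01 ± 0.19, adjusted p = 7.07e-05). FMR1 gave -1.67, -1.53 and -1.70 at 1 day (fit -1.58 ± 0.29, adjusted p = 0.000283). At 6 days its RIP libraries held 38, 16 and 1 fragments (fit -2.84 ± 0.85, adjusted p = 0.0128). In NGP FMR1 lay above input, at 0.21, 0.85 and 0.99 (fit 0.62 ± 0.30, edgeR adjusted p = 0.0846), and it was called without DMSO RIP replicate 1 (0.0155), without DMSO input replicate 3 (0.0189) and with no low-count filter (0.0349).

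Counted by experiment, 7 of 9 tested readers were called in Kelly at 6 days (3 above input, 4 below), where 58% of 13324 genes were called (28.8% above, 29.2% below). All 7 passed 2-fold, as did 25.8% of all genes above and 27.3% below. In NGP 7 of 9 were called (5 above, 2 below), where 55.5% of 13088 genes were (29% above, 26.5% below), and 3 and 2 of them passed 2-fold (20.9% and 19% of all genes). In the xenograft 2 of 9 were called, 1 above and 1 below, both past 2-fold, where 3.75% of 12626 genes were called (1.61% above, 2.15% below, all past 2-fold). YTHDF2 held 465 and 528 CPM in the tumour RIP libraries against 56.0 and 97.4 CPM in the inputs (log2 2.73 ± 0.64, adjusted p = 0.0497), and IGF2BP1 held 53.7 and 20.8 CPM against 290.2 and 299 CPM (log2 -3.00 ± 0.54, adjusted p = 0.0254). The call of YTHDF2 was lost without any 1 of the 4 inputs or either DMSO RIP library (edgeR adjusted p 0.0933 to 0.289) and with RLE factors (0.0530). IGF2BP1 was lost without any 1 of the 4 inputs or without DMSO RIP replicate 2 (0.0815 to 0.104). Without either treated RIP library, YTHDF1 (log2 2.24), YTHDC1 (1.43) and YTHDC2 were called as well. YTHDC2 had 0 counts in both DMSO RIP libraries of the tumours and a mean of 8.47 CPM in their inputs, which puts it at least 30.9-fold lower in RIP (against a floor of 3 counts per library). With either input alone the bound is 16.1-fold or 45.7-fold. These bounds cover counting error only and not the spread between libraries, which was wide: the treated RIP libraries held 0 and 467 fragments of YTHDC2.

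**Figure D4:**
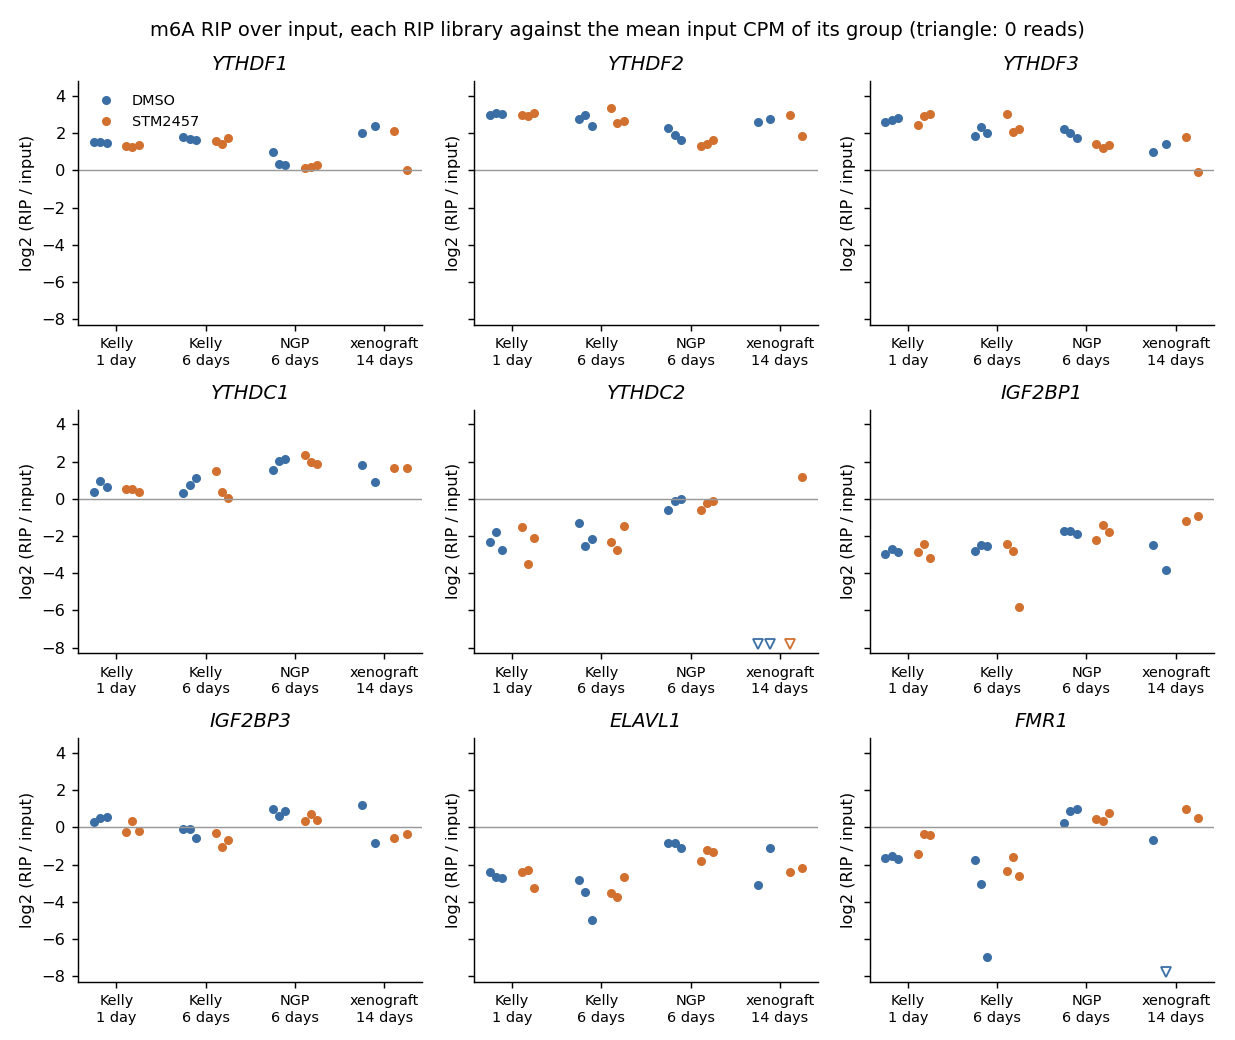
Log2 ratio of each RIP library's CPM over the mean input CPM of its group for the 9 measured reader genes, DMSO in blue and STM2457 in orange; open triangles at the foot mark libraries with 0 fragments. The YTHDF genes sit above the line of equal share in every DMSO library, IGF2BP1 and ELAVL1 below it.

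The ratios were set beside the exon structure given above. On both days in Kelly, the 3 readers with an internal exon of 1521 to 1599 bases had the 3 highest ratios (1.58 to 3.09 and 1.65 to 2.66). YTHDC1, next in length with 424 bases, came next (0.73 and 0.72), and the 5 readers at or under 293 bases lay between -2.77 and 0.50 at 1 day and between -3.57 and -0.28 at 6 days. This feature was chosen after the ratios had been seen and is given with no test. Over all genes tested in Kelly at 1 day, the 867 with an internal exon of 1000 bases or more had a median log2 ratio of 1.29 (quartiles 0.54 and 1.91), and the other 12495 a median of -0.24 (-1.77 and 1.26). In NGP the medians were 0.84 and 0.03, and there YTHDC1, IGF2BP3 and FMR1, which has the shortest such exon of the set, lay above YTHDF1. In the Kelly xenograft the medians were 0.93 and -0.27, and the order of the readers broke there too. YTHDC1 (1.44) lay above YTHDF3 (1.28), neither of them called. By GGACT per kilobase, YTHDF2 lies at percentile 60.1 of the tested transcripts, IGF2BP1 at 55.8, ELAVL1 at 31.7, YTHDC1 at 30.5, YTHDC2 at 29.9, IGF2BP3 at 19.2, YTHDF3 at 15.4, YTHDF1 at 12.1 and FMR1 at 9.70. Readers above and below input in Kelly stand at both ends of that order.

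**Figure D5:**
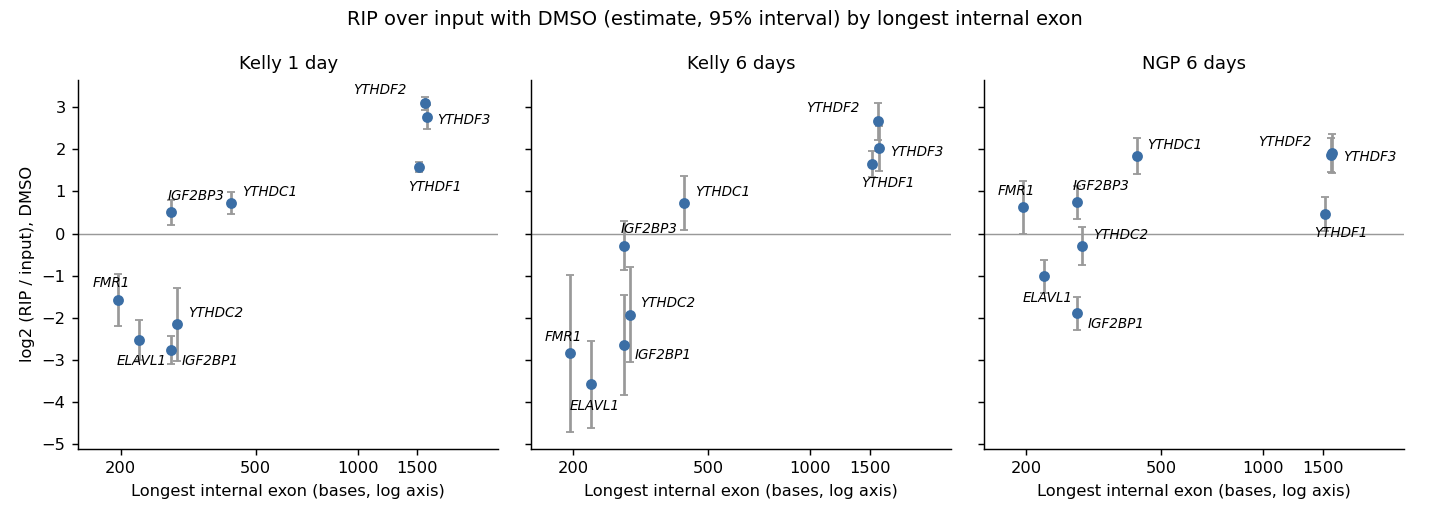
Fitted log2 ratio of RIP over input with DMSO (points, with 95% intervals) against the longest internal exon of the canonical transcript (bases, log axis) for 9 reader genes in Kelly 1 day, Kelly 6 days and NGP. The 3 YTHDF genes at 1521 to 1599 bases lie above 0 in all 3 panels, and the 5 genes at 196 to 293 bases spread from -3.57 to 0.74.

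The ratios of the lines were set against each other at 6 days in a comparison chosen after these values had been seen. With DMSO, 8 of 9 tested readers differed between NGP and Kelly, where 46.1% of all genes did (23.9% higher, 22.2% lower). YTHDF1 and YTHDF2 were lower in NGP by log2 differences of -1.36 ± 0.25 (adjusted p = 0.000504) and -0.97 ± 0.27 (0.00878). The other 6 were higher in NGP, led by FMR1 (3.30 ± 0.85, 0.0051), ELAVL1 (2.39 ± 0.46, 0.000619) and YTHDC2 (1.45 ± 0.45, 0.0166). YTHDC1 (0.95), IGF2BP3 (0.85) and IGF2BP1 (0.58) followed with adjusted p from 0.0184 to 0.0272. YTHDF3 did not pass (-0.29, 95% interval -0.85 to 0.27). The spread among the 9 readers was narrower in NGP, from -1.89 to 1.90, than in Kelly, from -3.57 to 2.66, and so it was over all genes tested, with quartiles of -0.85 and 0.97 in NGP and -1.97 and 1.49 in Kelly. Cell line and experiment cannot be told apart here.

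With STM2457 and TMM scaling, no change in the ratio of RIP over input passed the threshold in edgeR for any tested reader. The counts were 0 of 9 tested in each experiment, where 17.2% of all genes were called on day 1 in Kelly (9.53% up, 7.62% down), 2.06% on day 6 (1.26% up, 0.803% down), and 0% in NGP and the xenograft (764 and 809 genes at an unadjusted p under 0.05). Unadjusted p values under 0.05 numbered 1, 1, 0 and 2 of 9. YTHDF2 kept log2 ratios of 2.97, 2.91 and 3.08 in treated Kelly cells at 1 day, and its change was 0.05 with a 95% interval of -0.16 to 0.26. YTHDF1 moved by -0.12 (-0.29 to 0.04), IGF2BP1 by 0.13 (-0.30 to 0.57) and YTHDC1 by -0.10 (-0.47 to 0.27). FMR1 had the largest change, from -1.67, -1.53 and -1.70 with DMSO to -1.44, -0.35 and -0.40 with STM2457. These ratios did not overlap, but the highest DMSO and the lowest treated RIP library both held 8.35 CPM. The ratios use mean inputs, whose libraries overlapped (22.2 to 26.9 CPM with DMSO, 19.5 to 25.4 with STM2457). The log2 change was 1.08 ± 0.40 with an edgeR adjusted p of 0.0836. DESeq2 called it (1.17, adjusted p = 0.0254), as did edgeR without treated RIP replicate 1 (1.36, adjusted p = 0.0035). YTHDF3 was also called without that library (0.35), and IGF2BP3 without treated RIP replicate 2 (-0.56).

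At 6 days in Kelly the intervals were wider. YTHDF3 changed by 0.79 (95% interval 0.08 to 1.51, adjusted p = 0.249) and YTHDF2 by 0.54 (-0.04 to 1.13). Treated RIP replicate 1 was the highest library of both, at 3.04 for YTHDF3 and 3.33 for YTHDF2. IGF2BP1 had 1 treated RIP library at -5.81, replicate 3, while the other 2 lay at -2.41 and -2.80. In NGP the 3 YTHDF genes had changes of -0.26, -0.41 and -0.55, each with an interval that includes 0, and YTHDC1 one of 0.22 (-0.37 to 0.81). In the xenograft, YTHDC2 had 0 counts in treated RIP replicate 1 and 39.4 CPM in replicate 2, and IGF2BP1 held 104 and 124 CPM in treated RIP against 53.7 and 20.8 CPM with DMSO (adjusted p = 0.755).

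These ratios are relative, since TMM sets the middle of each library's genes level, and the spike-in RNAs named in the labels were not analysed here. With the RIP libraries scaled on the 13 mitochondrially encoded mRNAs instead, 7 of the 9 tested readers were called in Kelly at 1 day, all down, where 61.1% of all genes were called down. This scaling moves all genes alike: the median change over all genes was -1.47 with it and -0.03 with TMM. YTHDF2 then changed by -1.39 (adjusted p = 2.32e-07), YTHDF3 by -1.25, IGF2BP1 by -1.31 and ELAVL1 by -1.35, against values just above 0 with TMM. YTHDF1 (-1.57), YTHDC1 (-1.53) and IGF2BP3 (-1.80) were also called. At 6 days 2 were called, IGF2BP1 (-2.53) and IGF2BP3 (-2.09), where 28.8% of all genes were called down and the median was -1.93. In NGP and the xenograft edgeR called none with it, and 0% of all genes (372 and 863 genes at an unadjusted p under 0.05). The flipped signs of YTHDF2, YTHDF3, IGF2BP1 and ELAVL1 on day 1 come with that common shift and are not particular to these genes.

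Last, the pattern of each reader over the 8 input groups (means of log2(CPM + 1)) was set beside that of 9340 genes with a mean of at least 10 CPM. The most alike genes were CERK for YTHDF1 (Pearson r = 0.993), C5orf30 for YTHDF2 (0.996), ADCYAP1R1 for YTHDF3 (0.998), KIAA1522 for YTHDC1 (0.976), RBBP8 for YTHDC2 (0.992), HADHA for IGF2BP1 (0.997), TTI1 for IGF2BP3 (0.994), NFX1 for ELAVL1 (0.997) and NEURL4 for FMR1 (0.994). Within the set, IGF2BP1 and IGF2BP3 (r = 0.963), IGF2BP3 and ELAVL1 (0.960) and YTHDF1 and YTHDF3 (0.948) ran most alike, and YTHDC1 ran apart from IGF2BP1 (-0.186). These values describe 8 points that share 4 experiments, and they say nothing of shared function or control.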

How the data were processed

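The authors deposited raw fragment counts per gene for each of 44 libraries in 16 groups, which were assigned from the labels. Per the file headers, featureCounts 1.5.3 summed read pairs over the exons of each gene name (GENCODE 33, protein-coding genes), with no strand option, and a fragment on bases shared by genes went to neither. The submitters' processing notes list FastQC 0.11.5, Trimmomatic 0.36, HISAT2 2.1.0, Subread 1.5.3, deepTools 2.0 and GRCh38. CPM, TPM and family shares were computed from the counts. With library sizes scaled by TMM over all inputs, 19 of the 40 levels compared moved by over 1 SD. Limits from a count of 0 use 3 counts and cover counting error only.

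Effects within an experiment came from a fit of that experiment alone in edgeR 4.0.16 (R 4.3.3, quasi-likelihood test, two-sided). The model held treatment in the inputs, and library type, treatment and their interaction for RIP. Comparisons between experiments came from a joint fit of both. Those models held experiment for control levels, with treatment and the interaction for responses. For RIP ratios with DMSO they held experiment, library type and the interaction. Libraries were scaled by TMM, genes kept by filterByExpr (at least 10 counts in a library, 15 in all), and p-values adjusted by Benjamini-Hochberg over all genes tested, with calls at 0.05. The standard error is the log2 change over the root of F. Other settings were RLE scaling, DESeq2 1.42.0, keeping every gene with 1 count, the replicate number as a block, a joint fit of the 22 inputs, scaling of RIP on mitochondrial mRNAs, and leaving out each library; a lone remaining library is assumed to vary like the others. The fits were tested on simulated data.

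The members and gene lists were chosen with earlier results of these data known. All readers are named. From each list, at most 3 called genes per experiment are named, those with the largest changes and libraries without overlap. Protein sequences and spike-in RNAs were not analysed here.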

Additional observations from a re-analysis of the deposited data

Results flagged for a closer look

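In 2 comparisons the response or ratio of readers differed between experiments by a test of the difference itself, and the causes were not tested. The input response of IGF2BP1 to STM2457 differed between 6 days and 1 day in Kelly by 0.23 on the log2 scale (edgeR adjusted p = 0.0499). It kept its call in 10 of 16 alternatives and lost it with the replicate block (adjusted p = 0.109) and without any 1 of the day 1 inputs other than DMSO replicate 2 (0.0524 to 0.116). The ratio of RIP over input with DMSO differed between NGP and Kelly at 6 days, in a test added after the values were seen, for YTHDF1 (-1.36), YTHDF2 (-0.97), YTHDC1 (0.95), YTHDC2 (1.45), IGF2BP1 (0.58), IGF2BP3 (0.85), ELAVL1 (2.39) and FMR1 (3.30). Of these, YTHDF1, YTHDF2, YTHDC2, ELAVL1 and FMR1 kept their call in all 16 alternatives run. YTHDC1 kept it in 15, IGF2BP3 in 14 and IGF2BP1 in 8. Cell line and experiment cannot be told apart.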

How the results depend on the processing

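Counts of called readers in RIP over input with DMSO stayed within 1.5 times in Kelly on both days and in NGP under all alternatives run. Elsewhere they moved, and the cause was not tested. In the inputs, the 2 calls of Kelly day 1 became 1 with the replicate block and 0 with all 22 inputs in 1 fit, and ranged from 0 to 2 with 1 library left out. The 2 calls of day 6 became 0 in the joint fit and ranged from 1 to 2, and the 0 calls of the xenograft ranged from 0 to 1. For the change of RIP over input on day 1, 0 calls became 1 with DESeq2 and 7 with mitochondrial factors, and ranged from 0 to 2. There YTHDF2 (-1.39), YTHDF3 (-1.25), IGF2BP1 (-1.31) and ELAVL1 (-1.35) reversed, with a shift common to all genes (median -1.47 against -0.03 with TMM). On day 6 mitochondrial factors gave 2 calls. In the xenograft, the 2 calls of RIP over input became 1 with RLE and 4 with DESeq2, and ranged from 0 to 5. The difference between the Kelly days went from 1 call to 0 with the replicate block and ranged from 0 to 2. NGP over Kelly ranged from 1 to 5 calls, and the xenograft over Kelly from 1 to 6, with 1 under the replicate block. Same-numbered libraries deviated together with r between -0.343 and 0.244, so the numbers were not taken as pairs; the replicate block also brought a call for YTHDC1 in RIP over input on day 6 in Kelly (0.69, edgeR adjusted p = 0.0404). Over single readers, 2068 values kept their side of the threshold, 71 lost a call, 36 gained one and 4 reversed. Values uncalled under both settings numbered 1413, and 117 of these had the opposite sign.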
